A study of Mus musculus with 4 samples.

Results

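Egr1, Egr2, Egr3, Nab1, Nab2, Srf, Ier2, Ier3, Ier5 and Ier5l, 10 of the 47561 genes in the tables, were described in LSK cells. LSK cells are bone marrow cells sorted for Sca-1 and c-Kit and against markers of mature lineages, and they include blood stem cells and multipotent progenitors. The genes were chosen by family name, with the values of Metrn cKO against Metrn f/f libraries already known from these same tables, so that contrast is given for them as a description with no test. RNA-seq libraries came from 12-week-old C57BL/6 mice in 2 groups of 2 mice each. Metrn cKO mice carried a floxed Metrn gene, the gene of the secreted protein Meteorin, together with LysM, a locus used to drive deletion in myeloid cells. Metrn f/f mice carried the floxed gene alone, and their genotype label is wild type. LysM is active mainly in macrophages, monocytes and neutrophils, so the sorted progenitors are not the cells in which most deletion is driven. The question of the series is whether macrophage Meteorin regulates the stem and progenitor cells of the marrow.

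Immediate early genes are transcribed within minutes of a stimulus, without new protein synthesis, and their transcripts decay fast. Growth factors, cytokines, adhesion and mechanical handling act on them through the ERK kinase cascade, which phosphorylates partner factors of the serum response factor SRF at the CArG box of their promoters. EGR1, EGR2 and EGR3 are zinc finger factors made in this way, and in mouse blood stem cells Egr1 is known as a gene of quiescence and of retention in the marrow. NAB1 and NAB2 bind the EGR factors and repress their activity. The IER proteins are products of the same response: IER2 is a nuclear regulator, IER3 affects survival and ERK signalling, and IER5 takes part in the heat shock response.

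The promoters of 7 of the genes were searched for letter matches to sites of these and other factors. RefSeq promoter windows of GRCm38.p6, running from 250 bases before to 50 bases after a start site, were found for these 7 of the 10 genes, in 11 windows. No window was found for Egr1, Egr3 and Ier2, so their promoters were not searched. The CArG box, the site of SRF, was present in 1.63% of the 32851 windows of all genes. The Srf window held it at 2 places, -82 to -73 and -62 to -53 counted from the start site, and 4 of the 5 Egr2 windows, which overlap in part, held it as well. The EGR site GCGNGGGCG, present in 5.55% of all windows, was found once in the Srf window and at 3 places in the Nab1 window, beginning at -141, -109 and -38, for example as GCGTGGGCG. A kappaB site, present in 8.46% of all windows, lay at -92 to -83 of Ier3, and further matches lay at -71 to -62 of Nab1 and at -117 to -108 and -116 to -107 of the first Egr2 window. The windows of Ier5, Ier5l and Nab2 held none of the 7 motifs searched, which on both strands were also the ETS core GGAAGT, the CRE TGACGTCA, the AP-1 site TGANTCA and the TATA box TATAAA. In the Nab1 window only the first 19 bases lay before an annotated exon, so all its matches lay past the start of that exon. The Nab2 window began inside an annotated exon, so no sequence before that exon was searched. The motifs found in the printed windows did not overlap each other. These are matches of letters. Sites of other letters or outside the windows were not searched, and factor binding was not measured. The windows of Srf, Egr2 and Ier3 are shown as far as they lie outside annotated exons, because they carry the CArG, EGR and kappaB matches, which stand in capitals together with a TATA box match read on the other strand of Srf. They lie at chr17:46556176-46556412 on the minus strand, chr10:67537620-67537868 on the plus strand and chr17:35821463-35821683 on the plus strand.
Srf: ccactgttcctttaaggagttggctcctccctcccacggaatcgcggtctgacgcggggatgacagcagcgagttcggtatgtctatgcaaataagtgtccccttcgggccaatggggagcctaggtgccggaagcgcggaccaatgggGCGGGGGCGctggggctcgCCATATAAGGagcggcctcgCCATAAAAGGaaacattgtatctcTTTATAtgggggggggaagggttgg
Egr2: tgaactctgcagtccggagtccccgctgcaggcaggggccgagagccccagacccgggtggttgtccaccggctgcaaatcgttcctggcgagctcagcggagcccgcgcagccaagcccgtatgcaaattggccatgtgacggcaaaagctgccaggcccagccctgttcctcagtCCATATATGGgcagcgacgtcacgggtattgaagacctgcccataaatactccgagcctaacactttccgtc
Ier3: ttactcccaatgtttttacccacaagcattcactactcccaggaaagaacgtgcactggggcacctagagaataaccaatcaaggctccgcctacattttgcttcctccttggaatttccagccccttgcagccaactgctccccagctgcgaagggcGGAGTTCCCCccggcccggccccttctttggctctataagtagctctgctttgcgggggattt

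The libraries did not divide by genotype in their overall make-up. FPKM (fragments per kilobase of transcript per 1000000 mapped fragments) summed to 562401 and 412955 in Metrn cKO 1 and 2, and to 392717 and 671802 in Metrn f/f 1 and 2; read depth is unknown. Metrn cKO 1 and Metrn f/f 2 carried more macrophage, neutrophil and B cell transcripts than the other libraries of their genotypes. The 12 macrophage markers, all measured, summed to 249 and 82.7 FPKM in Metrn cKO and to 69.2 and 1184 FPKM in Metrn f/f. The 10 neutrophil markers summed to 58466 and 2023 FPKM in Metrn cKO and to 2577 and 32574 FPKM in Metrn f/f, and the 10 B and plasma cell markers to 881 and 69.2 FPKM in Metrn cKO and to 59.5 and 450 FPKM in Metrn f/f. No macrophage or neutrophil marker was at 0 in any library. The sort marker gene Kit had 25.9 and 116 FPKM in Metrn cKO, and 108 and 24.8 FPKM in Metrn f/f. The 8 LSK marker genes, Kit among them, differed less. They summed to 742 and 1036 FPKM in Metrn cKO, and to 944 and 839 FPKM in Metrn f/f. In such bulk samples fewer cells of a type and less RNA per cell cannot be told apart. Metrn itself had 42.3 and 36.7 FPKM in Metrn cKO and 29.3 and 66.3 FPKM in Metrn f/f, which overlap, and in LSK cells this checks the genotype labels only in part. Metrn cKO 1 resembled Metrn f/f 2 in its high neutrophil and B cell marker sums, and Metrn cKO 2 resembled Metrn f/f 1 in its low ones. The likeness did not extend to all cell types, since the macrophage sum was far higher in Metrn f/f 2 than in Metrn cKO 1. Erythroid markers summed to 236 and 210 FPKM in Metrn cKO, and to 201 and 603 FPKM in Metrn f/f. Whether labels of libraries were exchanged was not tested, and every difference between the genotypes given here rests on the labels as deposited.

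The genes covered a wide range of levels, as the plot of levels by library shows. Ier2 had the highest mean over the 4 libraries, 210 FPKM, followed by Ier3 at 64.0, Egr1 at 50.5, Ier5 at 39.6, Srf at 19.3, Nab1 at 11.5, Nab2 at 8.68 and Ier5l at 1.96 FPKM. Egr3 and Egr2 averaged 0.316 and 0.254 FPKM. Neighbours in this order overlapped in their ranges over libraries except at 4 steps: Ier5 lay above Srf, Srf above Nab1, Nab2 above Ier5l, and Ier5l above Egr3 in every library. A gene was tested when 2 or more libraries reached 1 FPKM, which held for 8 of the 10 and not for Egr2 and Egr3.

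**Figure D1:**
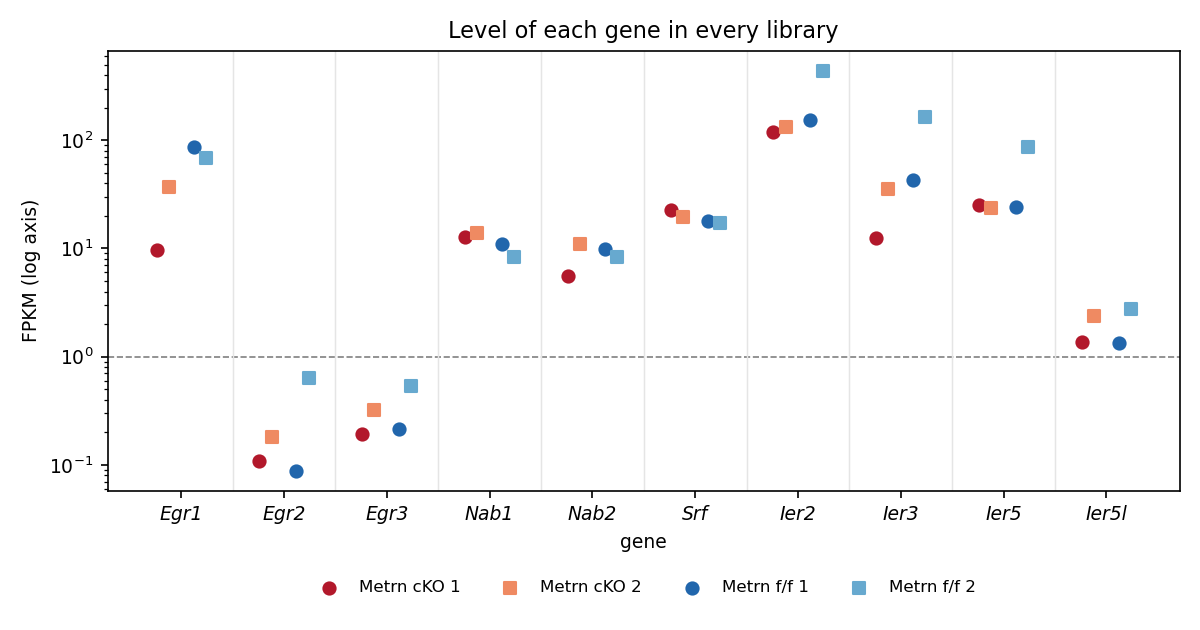
FPKM of each of the 10 genes on a log axis, with 1 point per library, Metrn cKO libraries in red and orange and Metrn f/f libraries in blue; the dashed line marks 1 FPKM. Egr1, Ier2 and Ier3 were lower in both Metrn cKO libraries than in both Metrn f/f libraries, and Ier2, Ier3 and Ier5 stood highest in Metrn f/f 2.

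The main comparison asked which genes of LSK cells differ when Metrn is deleted in myeloid cells. Over the 13148 tested genes, limma with Benjamini-Hochberg adjustment at 0.05 called 0 higher and 0 lower in Metrn cKO, which is 0% in each direction, and 8 genes were higher and 31 lower at an unadjusted p under 0.05. Without the intensity trend limma also called 0, with 11 and 35 at an unadjusted p under 0.05. With 2 mice per group, an exact permutation test of a single gene cannot give a 2-sided p below 0.333. Among the 8 tested genes here, the Metrn cKO values were all under the Metrn f/f values for 3 (Egr1, Ier2 and Ier3), against 5.73% of all tested genes. They were all over them for 2 (Nab1 and Srf), against 6.31% of all tested genes. The groups overlapped for Nab2, Ier5 and Ier5l. The median log2 fold change was -0.53 over the 8 genes and 0.07 over all tested genes. Fold changes are on the scale of log2(FPKM + 1), as Metrn cKO over Metrn f/f, with limma's standard error (SE); the contrast helped to choose the genes, so nothing is read from these counts. With only Metrn cKO 2 and Metrn f/f 1 kept, the libraries with the lowest macrophage, neutrophil and B cell marker sums, the median of the 8 genes was 0.03.

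Among the EGR factors, Egr1 was the one well above 1 FPKM, and it was lower in Metrn cKO. Egr1 (ENSMUSG00000038418.7, chromosome 18, positions 34859823 to 34864984 of GRCm38, plus strand, 2 exons) had 9.72 FPKM in Metrn cKO 1 and 37.3 in Metrn cKO 2, against 86.1 in Metrn f/f 1 and 68.9 in Metrn f/f 2. Both Metrn cKO libraries were low, Metrn cKO 1 lowest, and the Metrn f/f libraries lay close together. The mean was 23.5 ± 19.5 FPKM in Metrn cKO and 77.5 ± 12.2 FPKM in Metrn f/f (SD, n = 2 each). The log2 fold change was -1.94 (SE 0.64). Set against Metrn f/f 1, Metrn cKO 2 had a log2 difference of -1.18, and Egr1 was the 1 gene of the 8 that lay at least 2-fold lower there, as 0.616% of all tested genes did. In Metrn cKO 1 against Metrn f/f 1, Egr1 and Ier3 were the 2 genes at least 2-fold lower, against 10.4% of all tested genes. With 1 library left out at a time, the log2 fold change of Egr1 lay between -2.86, without Metrn cKO 2, and -1.02, without Metrn cKO 1.

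Egr2 and Egr3 stayed under 1 FPKM in every library. Egr2 had 0.109 and 0.182 FPKM in Metrn cKO, and 0.0886 and 0.638 FPKM in Metrn f/f. Egr3 had 0.192 and 0.325 FPKM in Metrn cKO, and 0.213 and 0.537 FPKM in Metrn f/f. For both genes Metrn f/f 2 was highest and the groups overlapped. Egr4, the remaining factor of the family, was listed at 0 and had 0.0255 FPKM in Metrn cKO, and 0.106 and 0.335 FPKM in Metrn f/f. The CArG box in the Egr2 windows printed above therefore belonged to a gene that was near the floor in all 4 libraries.

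The corepressors and Srf differed less than Egr1. Nab1 (ENSMUSG00000002881.14, chromosome 1, positions 52457294 to 52500679, minus strand) had 12.8 and 13.9 FPKM in Metrn cKO, and 11.1 and 8.34 FPKM in Metrn f/f, with a log2 fold change of 0.43 (SE 0.44). Nab2 (ENSMUSG00000025402.12, chromosome 10, positions 127660918 to 127668568, minus strand) had 5.55 and 10.9 FPKM in Metrn cKO, and 9.83 and 8.40 FPKM in Metrn f/f, with a log2 fold change of -0.19 (SE 0.52). The Metrn cKO libraries thus held both the lowest and the highest Nab2 value. Srf (ENSMUSG00000015605.6, chromosome 17, positions 46548329 to 46556175, minus strand) had 22.6 and 19.4 FPKM in Metrn cKO, and 18.0 and 17.3 FPKM in Metrn f/f, a log2 fold change of 0.23 (SE 0.40). Its values lay close together in all 4 libraries. With each library rescaled to the same sum, the groups of Nab1 and Srf overlapped: Nab1 had 22.7 and 33.5 units per 1000000 in Metrn cKO, and 28.2 and 12.4 in Metrn f/f, and Srf had 40.2 and 47.0 in Metrn cKO, and 45.9 and 25.7 in Metrn f/f.

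Of the IER genes, Ier2, Ier3 and Ier5 stood high in Metrn f/f 2. Ier2 (ENSMUSG00000053560.4, chromosome 8, positions 84661331 to 84662852, minus strand, 1 exon) had 119 and 132 FPKM in Metrn cKO, and 152 and 438 FPKM in Metrn f/f, with a log2 fold change of -1.03 (SE 0.60). Ier3 (ENSMUSG00000003541.6, chromosome 17, positions 35821684 to 35822923, plus strand, 2 exons) had 12.6 and 35.2 FPKM in Metrn cKO, and 42.8 and 165 FPKM in Metrn f/f, with a log2 fold change of -1.94 (SE 0.76). For both genes the groups did not overlap, but Metrn f/f 1 lay much closer to Metrn cKO 2 than to Metrn f/f 2. Leaving out Metrn f/f 2 gave log2 fold changes of -0.27 for Ier2 and -0.98 for Ier3. Metrn cKO 2 set directly against Metrn f/f 1 gave -0.19 for Ier2 and -0.28 for Ier3.

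Ier5 (ENSMUSG00000056708.5, chromosome 1, positions 155096361 to 155099636, minus strand, 1 exon) had 25.4 and 23.4 FPKM in Metrn cKO, and 24.1 and 85.6 FPKM in Metrn f/f. Metrn f/f 2 alone was high and the other 3 libraries lay close together, so the log2 fold change of -0.88 (SE 0.62) was 0.02 without Metrn f/f 2. Ier5l (ENSMUSG00000089762.3, chromosome 2, positions 30471537 to 30474219, minus strand, 1 exon), a relative of Ier5, had 1.37 and 2.40 FPKM in Metrn cKO, and 1.35 and 2.74 FPKM in Metrn f/f. The second library of each genotype was the higher one, and the log2 fold change was -0.06 (SE 0.56).

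Mice of 1 genotype also differed in these genes, as the plot of each library against Metrn f/f 1 shows. Ier2, Ier3 and Ier5 lay at least 2-fold higher in Metrn f/f 2 than in Metrn f/f 1, 3 of the 8 genes against 13.7% of all tested genes, with log2 differences of 1.52, 1.92 and 1.79. Egr1 differed by -0.32 between the same libraries. Egr1 and Ier3 lay at least 2-fold higher in Metrn cKO 2 than in Metrn cKO 1, 2 of the 8 genes against 12.4% of all tested genes, with log2 differences of 1.84 and 1.41. Ier2 and Ier5 differed by 0.15 and -0.12 there. This division between the genes held on the deposited scale. With each library rescaled to a sum of 1000000, Egr1 also differed between the Metrn f/f mice, at 219 and 103 units, and Ier2 differed between the Metrn cKO mice, at 211 and 321 units. The macrophage marker sum was 1184 FPKM in Metrn f/f 2 and 69.2 FPKM in Metrn f/f 1, and its part in the IER values was not tested.

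**Figure D2:**
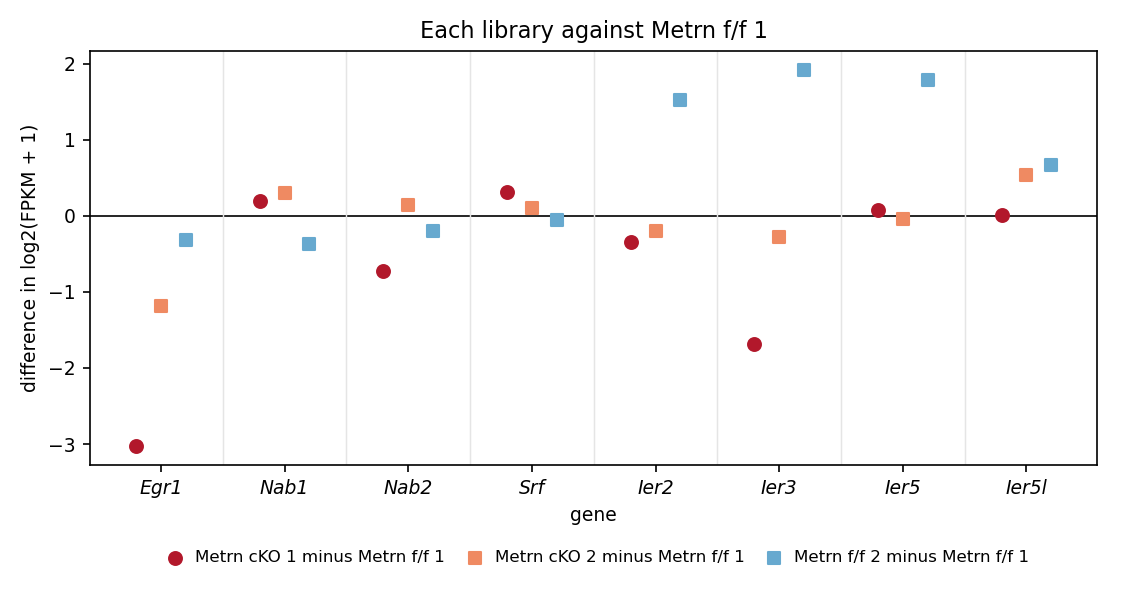
Difference in log2(FPKM + 1) of Metrn cKO 1, Metrn cKO 2 and Metrn f/f 2 from Metrn f/f 1, 1 point per library for each of the 8 tested genes. Egr1 was -3.02 in Metrn cKO 1 and -1.18 in Metrn cKO 2, while Ier2, Ier3 and Ier5 were 1.52 to 1.92 in Metrn f/f 2.

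Transcript length moved with the libraries too. Among tested genes whose longest annotated transcript was under 1500 nt, the median log2 difference from Metrn f/f 1 was 0.26 in Metrn cKO 1, 0.08 in Metrn cKO 2 and 0.87 in Metrn f/f 2 (2476 genes). Among those of 5000 nt and over it was -0.70, -0.01 and -1.31 (2382 genes). Ier2 and Ier3 have short transcripts. Ier3, at 1131 nt, was 1.92 higher in Metrn f/f 2 than in Metrn f/f 1, where the 500 tested genes nearest in length had a median of 0.88. Ier2, at 1522 nt, was 1.52 higher against 0.57 for its neighbours in length, and Ier5, at 3276 nt, 1.79 higher against -0.36. Egr1, at 4484 nt, differed by -0.317 against -0.795, so it also lay above its neighbours in length. Relative to genes of like length the log2 fold change of Metrn cKO over Metrn f/f was -2.15 for Egr1, -0.86 for Ier2, -1.73 for Ier3 and -0.97 for Ier5. That of Nab1 was 0.27 and that of Srf 0.23. The part of length in the values of single genes was not tested beyond this.

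**Figure D3:**
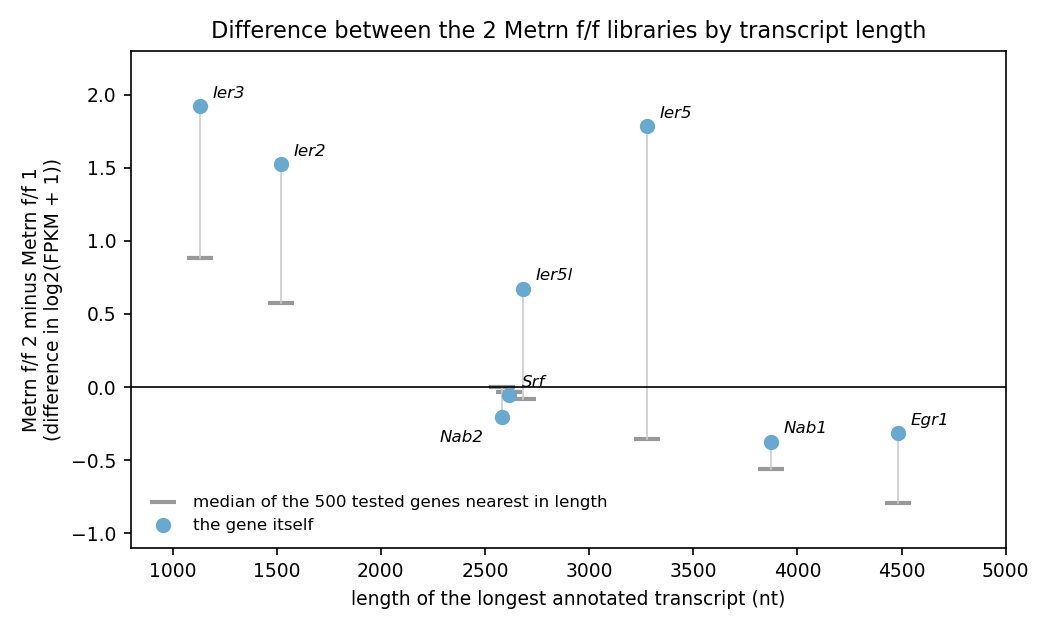
Log2 difference between Metrn f/f 2 and Metrn f/f 1 against the length of the longest annotated transcript, for each tested gene (points) and for the median of the 500 tested genes nearest to it in length (bars). Ier2, Ier3, Ier5 and Ier5l lay above the median of genes of their length, by 0.95, 1.04, 2.14 and 0.75. Egr1 and Nab1 also lay above it, by 0.477 and 0.185, and Nab2 and Srf were at -0.205 and -0.022 relative to it.

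The scale of the libraries changed some of these orders. Rescaled to a sum of 1000000 per library, Egr1 had 17.3 and 90.4 units in Metrn cKO, and 219 and 103 in Metrn f/f, and Ier2 had 211 and 321 in Metrn cKO, and 386 and 652 in Metrn f/f. Ier3 had 22.5 and 85.2 units in Metrn cKO, and 109 and 246 in Metrn f/f. On this scale Ier5 joined them, with 45.2 and 56.7 units in Metrn cKO, and 61.4 and 127 in Metrn f/f. So 4 of the 8 genes were lower in every Metrn cKO library than in any Metrn f/f library and 0 were higher in this way, where all tested genes had 752 below and 431 above, against 754 and 829 on the deposited scale. Leaving out the 20 most abundant genes before rescaling raised the median log2 fold change of all tested genes to 0.20, against 0.07 as deposited, and the log2 fold changes of Egr1, Ier2, Ier3 and Ier5 stayed below 0 under each scaling tried.

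**Figure D4:**
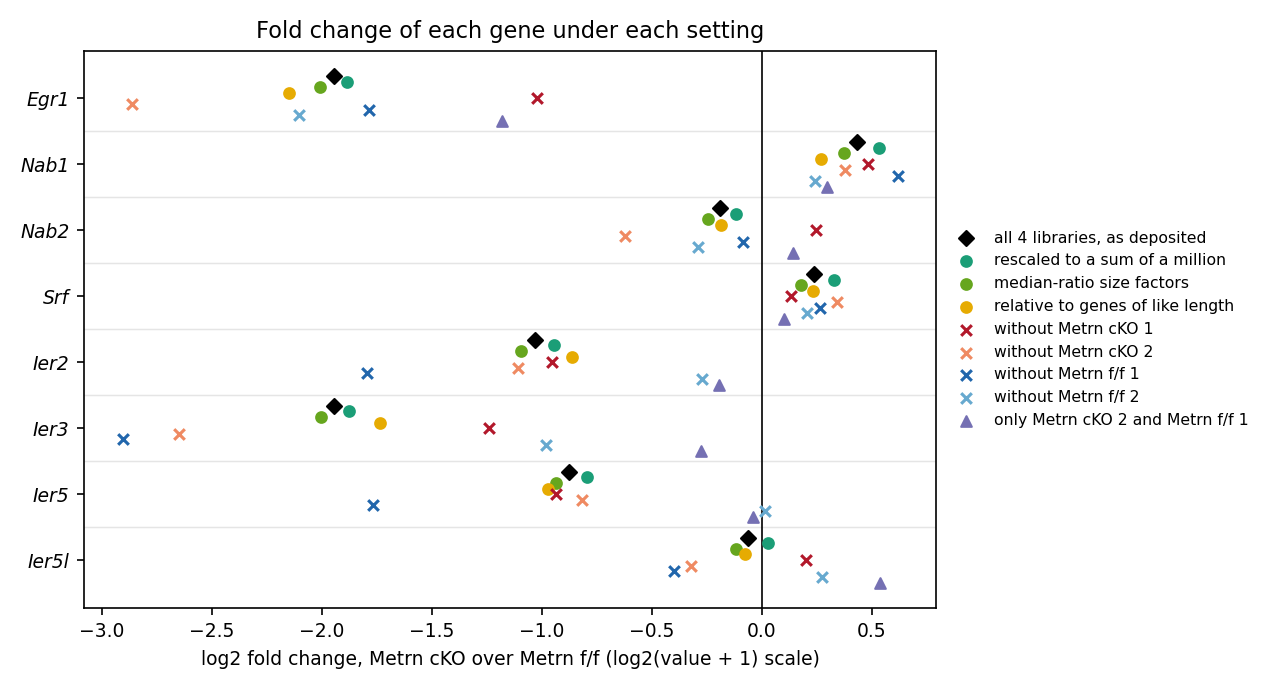
Log2 fold change of Metrn cKO over Metrn f/f for each tested gene with all libraries (diamonds), under other scalings and relative to genes of like length (circles), with 1 library left out (crosses) and from Metrn cKO 2 with Metrn f/f 1 alone (triangles). Egr1 stayed between -2.86 and -1.02, and Ier5 was -0.88 with all libraries and 0.02 without Metrn f/f 2.

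Genes around this response were taken from lists written with earlier results of these data known. No gene of these lists passed the test, and counts over all 4 libraries stand against 5.73% of all tested genes below and 6.31% above. Of the other immediate early genes 31 of 36 were tested, 24 were lower in every Metrn cKO library than in any Metrn f/f library, 0 were higher in this way, and the median log2 fold change was -1.36. Fos, the AP-1 subunit, had 174 and 288 FPKM in Metrn cKO, and 391 and 873 FPKM in Metrn f/f. Jun, its partner, had 191 and 313 FPKM in Metrn cKO, and 405 and 531 FPKM in Metrn f/f. Zfp36, which speeds the decay of AU-rich mRNAs, had 111 and 240 FPKM in Metrn cKO, and 379 and 541 FPKM in Metrn f/f. In all 3 genes Metrn cKO 1 was lowest and Metrn f/f 2 highest. The list median was -0.62 without Metrn f/f 2 and -0.46 for Metrn cKO 2 against Metrn f/f 1, where 29 of the 31 lay lower in Metrn cKO 2, as did 5460 of all 13148 tested genes.

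Upstream components had list medians above 0 that depended on single libraries. Of the 16 ERK cascade genes, all tested, 0 were lower in both Metrn cKO libraries than in both Metrn f/f libraries, and the median log2 fold change was 0.19. The kinase gene Rps6ka1 had 115 and 84.0 FPKM in Metrn cKO, and 90.2 and 61.3 FPKM in Metrn f/f. The adaptor gene Grb2 had 73.7 and 69.8 FPKM in Metrn cKO, and 81.0 and 64.0 FPKM in Metrn f/f, and Mapk3, which encodes ERK1, had 85.9 and 51.7 FPKM in Metrn cKO, and 46.0 and 70.5 FPKM in Metrn f/f. Among SRF partner factors 5 of 7 were tested, 1 (Mrtfa) had both Metrn cKO values above, and the median was 0.27. Elk3, an ETS partner of SRF, had 13.3 and 25.5 FPKM in Metrn cKO, and 29.3 and 11.9 FPKM in Metrn f/f. Mrtfa, the actin-sensing partner, had 21.9 and 24.7 FPKM in Metrn cKO, and 21.7 and 6.85 FPKM in Metrn f/f. Elk4, a further ETS partner, was lowest in Metrn f/f 2, and its log2 fold change was 0.62 (SE 0.89). Without Metrn f/f 2 the median of the SRF partners was -0.56 and that of the ERK cascade -0.04, and without Metrn f/f 1 they were 1.18 and 0.47. The SRF partners had a median of 0.87 without Metrn cKO 1 and -0.04 without Metrn cKO 2.

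Of the cytoskeletal SRF targets 12 of 15 were tested and none had groups that did not overlap. Their median log2 fold change was 0.31, and it was 0.04 without Metrn cKO 1 and 0.86 without Metrn cKO 2. The actin gene Actb had 1557 and 713 FPKM in Metrn cKO, and 672 and 1126 FPKM in Metrn f/f. Actg1 had 761 and 525 FPKM in Metrn cKO, and 502 and 605 FPKM in Metrn f/f. Cfl1, an actin-severing protein, had 1256 and 722 FPKM in Metrn cKO, and 683 and 1440 FPKM in Metrn f/f. Of the genes reported as EGR targets 8 of 10 were tested, 2 (Cdkn1a and Thbs1) had both Metrn cKO values below, and the median was 0.03, or -0.02 with median-ratio size factors. Leaving out Metrn cKO 1 gave -0.62 and leaving out Metrn cKO 2 gave -0.13, while leaving out Metrn f/f 1 gave -0.67 and leaving out Metrn f/f 2 gave -0.01. Cdkn1a, which encodes the cell cycle inhibitor p21, had 13.5 and 11.9 FPKM in Metrn cKO, and 19.7 and 40.2 FPKM in Metrn f/f. The cytokine gene Tgfb1 had 110 and 125 FPKM in Metrn cKO, and 129 and 67.8 FPKM in Metrn f/f, and the groups overlapped. Of the heat shock factor targets, the response in which IER5 takes part, 11 of 12 were tested, 0 had groups that did not overlap, and the median was -0.01, or 0.09 on the scale of equal sums. It lay between -0.38, without Metrn cKO 1, and 0.13, without Metrn cKO 2, when 1 library was left out. The chaperone genes Hspa8 (0.02, SE 0.68), Hsp90aa1 (-0.07, SE 0.46) and Hspe1 (-0.32, SE 0.59) had log2 fold changes smaller than their errors. Over the 11 tested genes of this list the log2 fold changes ran from -0.321 to 1.395.

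**Figure D5:**
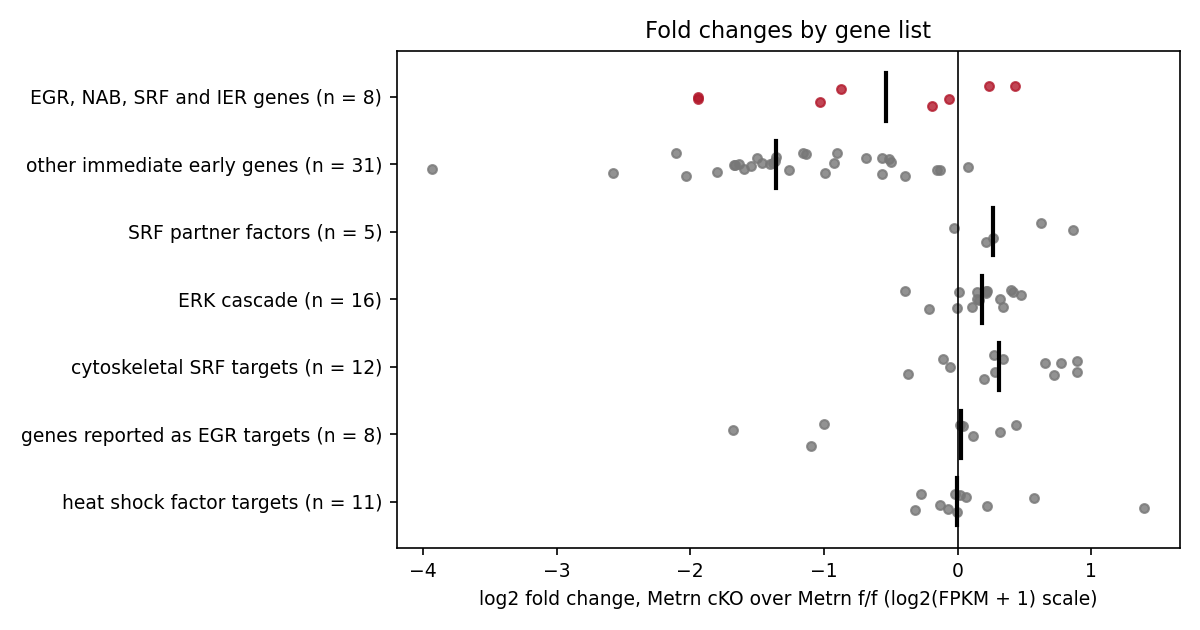
Log2 fold change of Metrn cKO over Metrn f/f for each tested gene (points) of the EGR, NAB, SRF and IER genes and of 6 gene lists, with the median of each as a black bar. The other immediate early genes had a median of -1.36, and the medians of the ERK cascade, SRF partners, SRF targets, EGR targets and heat shock targets lay between -0.01 and 0.31.

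Likeness of profile was measured as the root mean square difference of log2(FPKM + 1), centred on each gene's mean, over the 4 libraries. Among the 8 genes Ier2 and Ier5 were closest, at 0.154, followed by Nab1 and Srf at 0.186, while Egr1 was no closer than 0.807 to any of them, with Ier3 the nearest. Among the 9713 other tested genes with a mean of at least 4 FPKM, Fosb, an AP-1 subunit, was nearest to Egr1 at 0.271, with 15.6 and 61.8 FPKM in Metrn cKO, and 113 and 153 FPKM in Metrn f/f. Nfkbiz, an atypical inhibitor of NF-kB, followed at 0.41, and the small nucleolar RNA Snora64 at 0.424. Nearest to Ier2 were the kinase gene Dyrk3 at 0.098, with 4.99 and 5.40 FPKM in Metrn cKO, and 7.39 and 19.1 FPKM in Metrn f/f, the histone gene H2bu2 at 0.103 and Cenpv at 0.125. Nearest to Srf were Inpp5a at 0.0123, the deacetylase gene Hdac1 at 0.02 and Sash3 at 0.0216. All of these values come from the same 4 libraries, whose make-up differed, and they describe the profiles only.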

How the data were processed

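RNA was sequenced from sorted LSK cells of 2 Metrn cKO and 2 Metrn f/f mice, per the labels' protocols. Build mm10 is named in the submitters' processing notes, as are HISAT2 2.1 and cutadapt 1.16.5, then featureCounts 1.6.4, bcl2fastq 2.19 and DESeq2 2.11.40.6, all without roles. The authors deposited 1 table per library with values taken here as FPKM, since the headers give no unit and the values have decimals and unequal sums. FPKM are shares of a library, so abundant transcripts lower all others. The sources used here give neither the annotation nor the strand setting. Read depth is unknown, since there were no read counts.

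The 13148 genes that reached 1 FPKM in 2 or more libraries were compared on log2(FPKM + 1) by limma 3.58.1 in R 4.3.3 with an intensity trend, 2-sided, at 0.05 after Benjamini-Hochberg adjustment across the 13148 genes. The script was tested on simulated data. These had less spread between libraries than the genes described here and no difference in make-up, so that test does not bear on the absence of calls. The genes described and the lists were chosen with earlier results of these data known. Named list genes are the 3 with the highest mean FPKM in each list, and others are named where a count of 5 or fewer is given; some list genes are not reported here. Kit was chosen after its values were seen. Positions and transcript lengths come from GENCODE M21 on GRCm38 (mm10), with a length for 94.5% of tested genes, and promoters from RefSeq GRCm38.p6. Protein sequences were not used here. Alternatives were another pseudocount, other filters and scalings, no trend, a replicate block and each library left out.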

Additional observations from a re-analysis of the deposited data

How the results depend on the processing

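Egr1, Ier2, Ier3, Nab1 and Srf kept the sign of their log2 fold change under every alternative tried. Without 1 library at a time the ranges were -2.863 to -1.024 for Egr1, -1.795 to -0.27 for Ier2, -2.903 to -0.981 for Ier3, 0.243 to 0.616 for Nab1 and 0.13 to 0.34 for Srf. They were -1.769 to 0.016 for Ier5, -0.398 to 0.275 for Ier5l, -0.623 to 0.244 for Nab2 and -1.083 to -0.127 for the median. The change of sign came without Metrn f/f 2 for Ier5 (0.016) and Ier5l (0.275) and without Metrn cKO 1 for Ier5l (0.199) and Nab2 (0.244). Ier5l was also above 0 when rescaled to a sum of 1000000 (0.029) and without the 20 most abundant genes (0.057). With Metrn cKO 2 and Metrn f/f 1 alone Ier5l was 0.535, Nab2 0.142 and the median 0.03. The 2 genes with both Metrn cKO values above became 0 when rescaled to a sum of 1000000, where 431 of all 13148 tested genes were above. The count was 1 with median-ratio size factors and 1 without the 20 most abundant genes, where 756 and 648 of the 13148 were above. It was 4 with Metrn cKO 2 and Metrn f/f 1 alone, where 7615 of the 13148 were above. Leaving out 1 library gave 2 to 3 above and 3 to 5 below, and the share of all tested genes rose as well. The 5 came without Metrn f/f 1, where 4024 of 12365 tested genes were below and 5608 above. Without Metrn cKO 1, 4 were below and 3 above, against 2093 and 4687 of 12745 tested genes. Without Metrn cKO 2, 4 were below and 2 above, against 2879 and 2272 of 12353. Without Metrn f/f 2, 3 were below and 3 above, against 3548 and 3033 of 12693. Genes called by limma ranged from 0 to 32 higher and from 0 to 4 lower without 1 library, with 32 higher and 2 lower without Metrn cKO 2 and 4 lower without Metrn cKO 1. The replicate block of the labels' numbers, which mark no shared litter or day, gave 3 higher and 1 lower. The differences between replicates 1 and 2 of the genotypes correlated at -0.708 over genes, whether labels were exchanged was not tested, and the crossed replicate block, chosen after seeing the data, gave 37 higher and 65 lower. Scaling without the 20 most abundant genes and the correction for length were also chosen after seeing the data. The causes were not tested. With 2 mice per group and no read counts, counting error could not be set apart from the spread between mice.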
